A study of Mus musculus with 2 samples.

Results

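The 6 genes described here are the receptors Pdgfra and Pdgfrb and the ligands Pdgfa, Pdgfb, Pdgfc and Pdgfd of the platelet-derived growth factor (PDGF) family, taken as a list by symbol from the 27998 genes counted. They were measured by single-cell RNA sequencing (10x Chromium 3' v3) of the stromal vascular fraction, the non-adipocyte cells released from fat, of epididymal white adipose tissue (eWAT). The mice, C57BL/6 by the labels and male C57BL/6J by the study's methods, had eaten a low-fat diet (LFD) or a high-fat diet (HFD) for 24 wk from 6 wk of age. There was 1 library per diet, and the labels do not give the number of mice in it, so no test between diets was possible and each interval below covers counting error only. The field that describes treatment names a low-fat diet for both libraries, while the sample characteristics and titles name LFD and HFD, which were used.

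PDGF ligands are secreted dimers that bring receptor chains together at the cell surface and switch on their kinase domains. The A and C chains act mainly through PDGF receptor alpha, a surface marker of adipose fibroblasts and adipocyte progenitors. The B chain binds both receptors, and the D chain acts mainly through PDGF receptor beta. In blood vessels, PDGF-B from endothelial cells recruits and holds pericytes, the mural cells that carry PDGF receptor beta. The C and D chains are secreted with an inhibitory domain that proteases remove. The comparison asks which stromal cells carried the receptors, which carried the ligands, and how both stood in lean and obese fat.

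All 6 genes were found under 1 identifier each, and in mm10 (GRCm38) coordinates of GENCODE M21 they lie apart. Pdgfa (ENSMUSG00000025856) occupies chr5:138976014-138997370 on the minus strand and Pdgfra (ENSMUSG00000029231) chr5:75152292-75198215 on the plus strand. Pdgfb (ENSMUSG00000000489) lies at chr15:79995874-80014977 on the minus strand, Pdgfc (ENSMUSG00000028019) at chr3:81036416-81214040 and Pdgfd (ENSMUSG00000032006) at chr9:6168584-6378850, both on the plus strand. Pdgfrb (ENSMUSG00000024620) spans chr18:61045150-61085061 on the plus strand. None of the 6 overlaps a gene on the same strand that the files count. On the other strand, Gm42802 overlaps Pdgfra, 6330403L08Rik overlaps Pdgfa, Gm16000 overlaps Pdgfc and Ddi1 overlaps Pdgfd, and the sources used here do not give the strand setting of the counting.

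The LFD library held 1113 barcodes, of which 1057 had at least 200 genes, with 7279955 UMIs (unique molecular identifiers, 1 per captured transcript) in them. The HFD library held 1144 barcodes, of which 1117 were kept, with 8389196 UMIs. The median depth was 6523 UMIs per barcode under LFD and 6598 under HFD, and the libraries shared 0 barcodes. Expression is given as the UMIs of a gene scaled to 1000000 UMIs of a class (CPM). A UMI is counted at the 3' end of a transcript, so CPM was not divided by gene length and values are compared within a gene.

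Barcodes were classed by UMIs of a few genes. At least 10 UMIs of Dcn marked a fibroblast, and at least 3 UMIs of Pi16, Dpp4 and Sema3c together set Pi16-high fibroblasts apart from Pi16-low ones. At least 3 UMIs of Cdh5 and Cldn5 marked an endothelial cell, at least 5 of Rgs5, Kcnj8, Abcc9 and Notch3 a mural cell, and at least 10 of C1qa, C1qb and C1qc a macrophage. This gave 204 LFD and 207 HFD Pi16-low fibroblasts, 173 and 84 Pi16-high fibroblasts, 98 and 115 endothelial cells, and 230 and 321 macrophages. The Pi16 cut was not clean, since 49 LFD and 30 HFD fibroblasts lay at 2 or 3 UMIs of the genes that set it.

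Markers that the rules did not use were set against the class labels, and 2 groups of barcodes that bear on the PDGF genes stood apart. Of the 180 barcodes that met the mural rule, 169 (93.9%) also met another rule. Only 5 LFD and 6 HFD barcodes were mural alone, while 51 LFD and 92 HFD barcodes met the mural and the endothelial rule and no other. These endothelial-mural barcodes were deeper than endothelial barcodes, with medians of 13270 against 4318 UMIs under LFD and 9029 against 3156 under HFD. They held 6368 and 6105 CPM of 7 endothelial markers, against 8039 and 8517 in endothelial cells, and 1333 and 1439 CPM of 9 mural markers, against 150 and 236 in endothelial cells. Scrublet, a doublet caller, marked 0 of the 51 and 0 of the 92. Whether they were cells of different types in 1 droplet was not tested, and they are given apart throughout.

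The other group lay among the fibroblasts. A group of 29 LFD and 14 HFD fibroblast barcodes also carried at least 3 UMIs of Msln, Upk3b and Lrrn4, genes of the mesothelium, the cell layer that covers visceral fat. No fibroblast barcode lay at 2 or 3 UMIs of these genes, and 25 of the LFD and 12 of the HFD barcodes lay in the Pi16-high class. All 6 mesothelial markers, among them Krt19, Krt18, Wt1 and Upk1b, which the rule did not use, had UMIs in these barcodes, at 6188 CPM together under LFD and 6556 under HFD. In the remaining Pi16-high fibroblasts they summed to 189 and 139.9 CPM. These sums cover all 6 markers and are not given for the named ones alone, so a part of the contrast may follow from the rule. The 7 fibroblast markers, among them Col1a1, Col3a1 and Lum, which the Dcn rule did not use, summed to 5651 and 6080 CPM in the barcodes with mesothelial genes and to 26430 and 38656 CPM in the remaining Pi16-high fibroblasts. They are called mesothelial-gene barcodes below. They met the Dcn rule and are counted among the 377 LFD and 291 HFD fibroblasts wherever they are not said to be set apart.

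**Figure D1:**
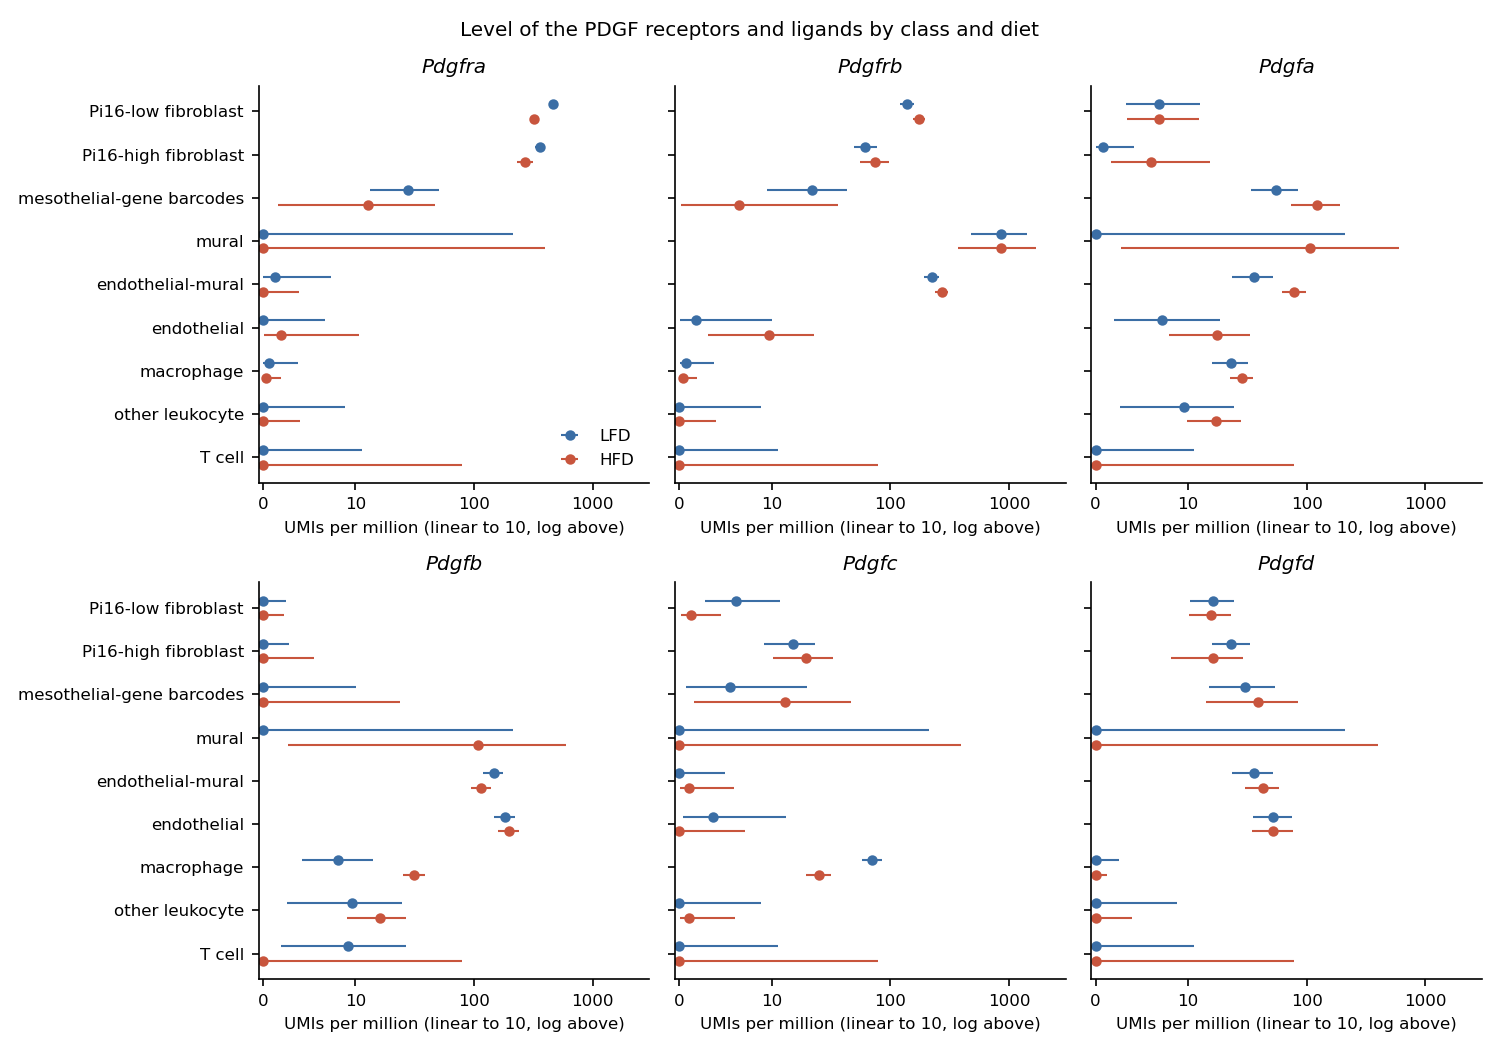
CPM of the 6 PDGF genes (horizontal axis, linear to 10 and logarithmic above) in 9 classes of barcodes, LFD in blue and HFD in red. Points are the pooled value of a class and bars are exact Poisson 95% intervals. Pdgfra sits in both fibroblast classes, drawn without the mesothelial-gene barcodes, at 269 CPM or more, Pdgfrb is highest in the few mural barcodes, and Pdgfb is at 0 in fibroblasts and at 181 and 196 CPM in endothelial cells.

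Pdgfra marked the fibroblasts almost alone. In Pi16-low fibroblasts it stood at 458 CPM under LFD (682 UMIs, 95% interval 424 to 493) and at 320 CPM under HFD (512 UMIs, 293 to 349). The Pi16-high class gave 289 CPM under LFD (482 UMIs, 263 to 316) and 221 CPM under HFD (182 UMIs, 190.1 to 256). The level was therefore highest in Pi16-low fibroblasts of the LFD library and lower under HFD in both classes, with no overlap of the intervals between diets within either class. Mesothelial-gene barcodes had 27.6 CPM (10 UMIs) and 12.9 CPM (2 UMIs).

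Without the mesothelial-gene barcodes, Pi16-high fibroblasts had 356 CPM of Pdgfra under LFD and 269 under HFD. The Pi16-low level exceeded these 1.30-fold under LFD (95% interval 1.16 to 1.47) and 1.19-fold under HFD (1.002 to 1.42). The 25 and 12 barcodes set apart from the Pi16-high class stood at 20.8 and 6.62 CPM. With them included, the Pi16-low to Pi16-high ratio was 1.59 (1.41 to 1.79) and 1.45 (1.22 to 1.72).

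Cells outside the fibroblast lineage gave next to no Pdgfra. The 230 LFD and 321 HFD macrophages each held 1 UMI, endothelial cells held 0 and 1, and T cells (72 and 21 barcodes) held 0 in both libraries, which allows a share of up to 4.17% of LFD and 14.3% of HFD T cells with a UMI. By contrast, 84.8% of LFD and 83.1% of HFD Pi16-low fibroblasts had at least 1 UMI (intervals 79.1 to 89.4 and 77.3 to 87.9). Median depth was 7888 and 7546 UMIs in Pi16-low fibroblasts and 2764.5 and 1781 in T cells. After each barcode was thinned to 1000 UMIs, the shares in Pi16-low fibroblasts were 34.7 and 24.4%, and in T cells 0.

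Pdgfrb was carried by fibroblasts and by mural cells. Pi16-low fibroblasts stood at 136 CPM under LFD (203 UMIs, 118 to 156) and 174 CPM under HFD (278 UMIs, 154 to 196). The Pi16-high class stood at 53.3 CPM (89 UMIs, 42.8 to 65.6) and 62.0 CPM (51 UMIs, 46.1 to 81.5). In contrast to Pdgfra, Pdgfrb separated the fibroblast classes more than 2-fold, with a Pi16-low to Pi16-high ratio of 2.56 under LFD (1.98 to 3.32) and 2.81 under HFD (2.08 to 3.86). Setting mesothelial-gene barcodes apart left these at 2.24 (1.73 to 2.94) and 2.34 (1.73 to 3.23).

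The highest Pdgfrb level was in the barcodes that met the mural rule alone, at 861 CPM under LFD (15 UMIs, 482 to 1420) and 857 under HFD (8 UMIs, 370.0 to 1689). That was 6.32-fold the Pi16-low level under LFD (3.47 to 10.7) and 4.93-fold under HFD (2.11 to 9.85). These barcodes were few and shallow, at a median of 3823 and 1038 UMIs, and under HFD only 2 of the 6 carried a Pdgfrb UMI. Their median mitochondrial share was 7.24 and 16.1%, against 4.43 and 4.76% over each library. Endothelial-mural barcodes came next, at 223 CPM (168 UMIs, 190.2 to 259) and 271 CPM (255 UMIs, 239 to 306). The order from mural to endothelial-mural, Pi16-low and Pi16-high was the same in both libraries, with intervals that did not overlap between neighbours.

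Endothelial cells below the mural cut had 1.81 and 9.68 CPM of Pdgfrb, from 1 and 5 UMIs. Macrophages had 1 UMI in each library, and T cells 0. A Pdgfrb UMI was found in 70.6 and 73.9% of endothelial-mural barcodes, in 55.9 and 62.3% of Pi16-low fibroblasts and in 33.5 and 33.3% of Pi16-high fibroblasts.

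The study also sorted CD34 cells of eWAT by both receptor proteins, and the number of fibroblast barcodes with UMIs of both was therefore counted. Of 377 LFD fibroblasts, 152 (40.3%, exact binomial 95% interval 35.3 to 45.5) had both, 158 had only Pdgfra, 20 only Pdgfrb and 47 neither. Of 291 HFD fibroblasts, 137 (47.1%, 41.2 to 53.0) had both, 95 only Pdgfra, 20 only Pdgfrb and 39 neither. With 5000 UMIs drawn from each of the 319 LFD and 253 HFD barcodes that had them, the shares were 32.0% (26.9 to 37.4) and 31.2% (25.6 to 37.3), and with 1000 UMIs they were 3.49 and 2.77%. Setting the mesothelial-gene barcodes apart gave 43.1% of 348 (37.8 to 48.5) and 49.5% of 277 (43.4 to 55.5) at full depth. Under the gene and mitochondrial limits of the study methods the shares were 29.9% of 77 (19.97 to 41.4) and 42.9% of 91 (32.5 to 53.7). The intervals of the libraries overlapped in each of these counts. T cells and macrophages held both receptors in 0 of 72 and 0 of 230 LFD barcodes and in 0 of 21 and 0 of 321 HFD barcodes.

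Co-detection was set apart by fibroblast class. At 5000 UMIs, 44.7% of LFD and 39.5% of HFD Pi16-low fibroblasts had both receptors, against 19.4 and 11.8% of the Pi16-high class. In Pi16-low fibroblasts with a Pdgfra UMI, 51.1% under LFD and 51.5% under HFD also had Pdgfrb, and in those without one the shares were 60.0% (12 of 20, interval 36.1 to 80.9) and 48.8% (20 of 41, 32.9 to 64.9). Barcodes chosen instead by a UMI of Cd34 and none of Ptprc or Pecam1, gave 39.7% of 353 under LFD and 47.7% of 262 under HFD at full depth. Thinned to 5000 UMIs, these stood at 31.4 and 32.0%.

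**Figure D2:**
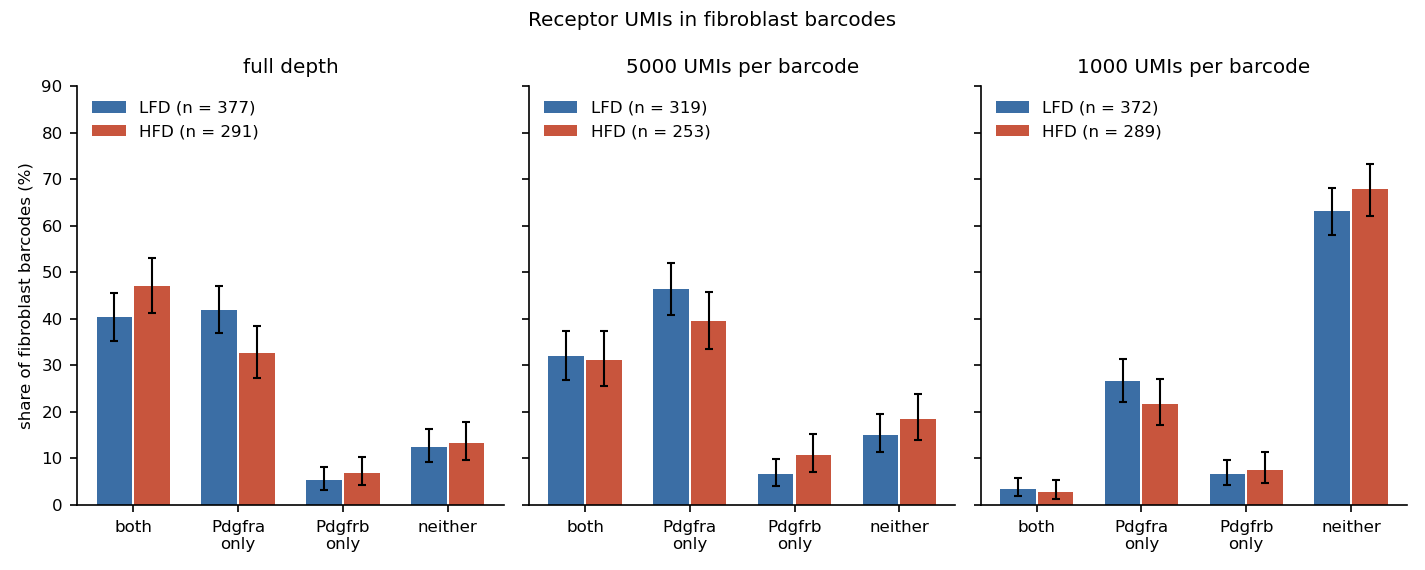
Share of fibroblast barcodes (vertical axis, %) with UMIs of both receptors, of Pdgfra only, of Pdgfrb only or of neither, at full depth and after thinning to 5000 or 1000 UMIs, LFD in blue and HFD in red. Bars are shares and lines are exact binomial 95% intervals. The share with both is 40.3 and 47.1% at full depth and 32.0 and 31.2% at 5000 UMIs.

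Between diets the receptors differed in opposite directions at full depth. The HFD/LFD ratio of Pdgfra was 0.700 in Pi16-low fibroblasts (exact conditional 95% interval 0.623 to 0.786) and 0.766 in Pi16-high fibroblasts (0.642 to 0.910). That of Pdgfrb was 1.28 in Pi16-low fibroblasts (1.06 to 1.54) and 1.16 in Pi16-high fibroblasts (0.807 to 1.66). Neither receptor passed 2-fold in either class. Past 2-fold in either direction were 7.02% of the 8964 genes with at least 20 UMIs in Pi16-low fibroblasts and 6.36% of 8763 in Pi16-high fibroblasts. The median log2 ratio over these genes was -0.03 in the Pi16-low class.

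The Pdgfra ratio in Pi16-low fibroblasts was 0.607 in barcodes below 5000 UMIs, with an interval of 0.355 to 1.02 that held 1. It was 0.733 (0.639 to 0.841) from 5000 to 10000 and 0.643 (0.501 to 0.823) at 10000 or more. In Pi16-high fibroblasts it was 0.213 (0.0402 to 0.730) from 18 and 3 UMIs, 0.730 (0.566 to 0.933) from 298 and 84, and 0.972 (0.747 to 1.26) from 166 and 95 in the same ranges of depth, so that the interval held 1 in the deepest barcodes. With the limits of the study methods, 200 to 2500 genes and under 5% mitochondrial UMIs, only 55 LFD and 75 HFD Pi16-low fibroblasts were left and their Pdgfra ratio was 1.01 (0.761 to 1.34). In Pi16-high fibroblasts it was 0.429 (0.248 to 0.716) from 60 and 21 UMIs under these limits, and 0.971 (0.578 to 1.59) from 53 and 25 UMIs when thinned to 1000 UMIs. For Pdgfrb in Pi16-low fibroblasts the ratio was 1.07 below 5000 UMIs, 1.19 from 5000 to 10000 and 1.71 (1.13 to 2.61) at 10000 or more. Thinned to 5000 UMIs, the Pdgfrb ratio was 1.06 (0.822 to 1.37) from 116 and 137 UMIs, an interval that held 1, and thinned to 1000 UMIs it was 0.880 (0.513 to 1.501) from 32 and 29 UMIs.

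In mural barcodes the Pdgfrb ratio was 0.996 with an interval of 0.366 to 2.50, so that a change of 2-fold in either direction could not be seen. Endothelial-mural barcodes gave 1.22 (0.999 to 1.49). Of the 177 genes with at least 20 UMIs in mural barcodes, 22% were past 2-fold, and Pdgfrb, the only member that could be counted there, was not.

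Over all barcodes, Pdgfra stood at 165 CPM under LFD and 89.5 under HFD, a ratio of 0.542 (0.494 to 0.594), and Pdgfrb at 70.5 and 83.3 CPM, a ratio of 1.18 (1.05 to 1.33). Fibroblasts were 35.7% of LFD and 26.1% of HFD barcodes, and the number of fibroblasts and the Pdgfra level of each enter the first of these values together. None of the 6 genes was past 2-fold over all barcodes, where 9.65% of 12940 genes were.

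**Figure D3:**
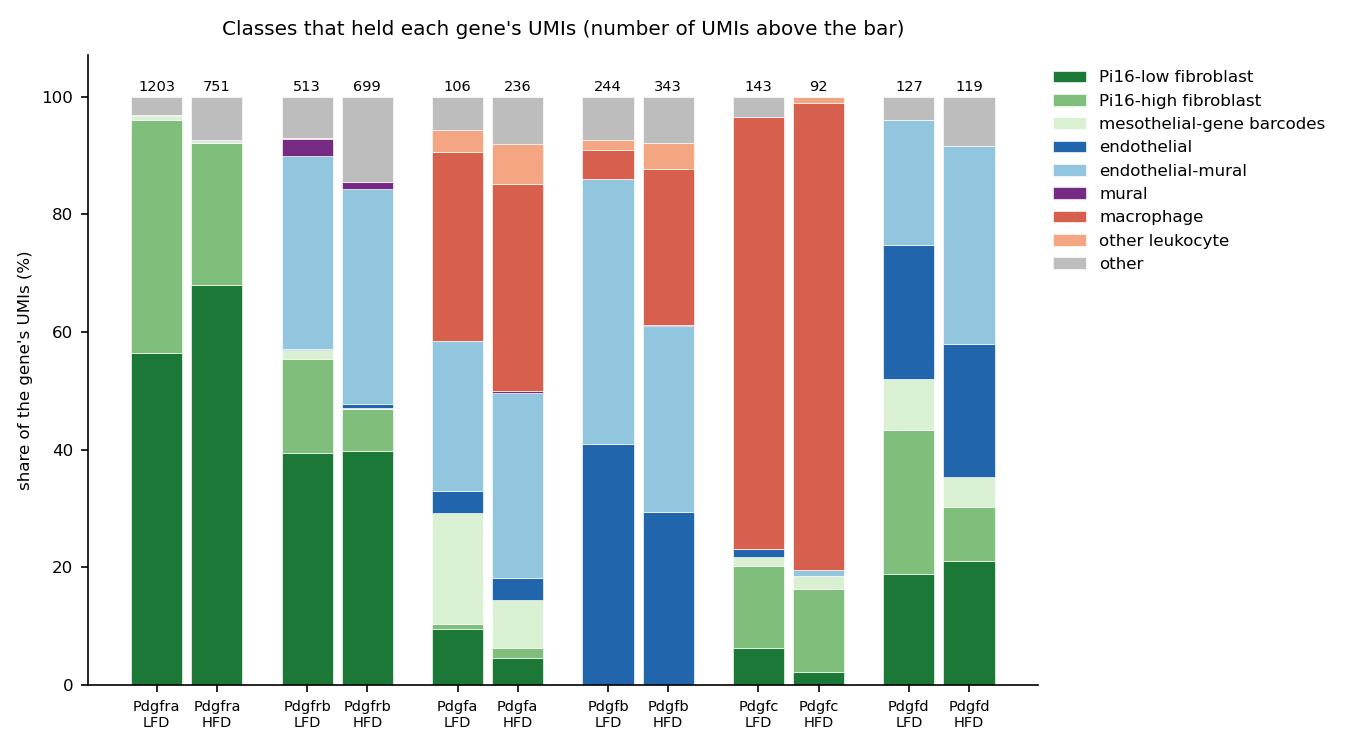
Share of the UMIs of each PDGF gene (vertical axis, %) held by each class of barcodes, with LFD at the left and HFD at the right of each pair and the number of UMIs above the bar. Pdgfra is nearly all fibroblast, and Pdgfc is 73.4% macrophage under LFD and 79.3% under HFD. Pdgfb is 41.0 and 29.4% endothelial, 45.1 and 31.5% endothelial-mural, and 4.92 and 26.5% macrophage.

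The sources of the receptor transcripts followed from these levels. Fibroblasts other than the mesothelial-gene barcodes held 1154 of the 1203 Pdgfra UMIs under LFD and 692 of 751 under HFD. For Pdgfrb, Pi16-low fibroblasts with those barcodes set apart held 39.4% of 513 UMIs under LFD and 39.8% of 699 under HFD, and endothelial-mural barcodes held 32.7 and 36.5%. The barcodes that met the mural rule alone, in spite of their level, held 2.92 and 1.14%.

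Among the ligands, Pdgfb stood highest in endothelial cells, as did Pdgfd (below). Endothelial cells stood at 181 CPM of Pdgfb under LFD (100 UMIs, 147 to 220.1) and 196 CPM under HFD (101 UMIs, 159 to 238), a ratio of 1.08 (0.812 to 1.44). At least 1 UMI was found in 49.0% of 98 and 47.0% of 115 endothelial barcodes. Their level did not differ between the libraries beyond counting error, and the intervals of the ratio between vessel types included 1. Arterial endothelial cells, with at least 3 UMIs of Sema3g, Gja4, Gja5, Sox17 and Hey1, had 170.4 and 210.4 CPM. Capillary-type cells, with at least 3 UMIs of Gpihbp1, Rgcc and Car4, had 205 and 193 CPM. The arterial to capillary ratio was 0.831 (0.550 to 1.26) under LFD and 1.09 (0.721 to 1.66) under HFD.

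Fibroblasts that met no other class rule gave no Pdgfb. There were 0 UMIs in 377 LFD and 0 in 291 HFD fibroblasts, which allows up to 0.796 and 1.03% of them to hold a UMI. Barcodes that also met another rule are not among them. With those included, the 388 LFD and 311 HFD barcodes that met the Dcn rule held 8 and 16 UMIs of Pdgfb. The part of free RNA was not tested. The median depth of fibroblasts was 8500 and 7903 UMIs, above that of endothelial cells.

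Endothelial-mural barcodes had 146 CPM of Pdgfb under LFD (110 UMIs) and 115 CPM under HFD (108 UMIs). Of the 51 LFD barcodes, 42 held Pdgfb, 36 held Pdgfrb and 31 held both. Of the 92 HFD barcodes, 57 held Pdgfb, 68 held Pdgfrb and 46 held both. The ligand of pericyte recruitment and its receptor were thus found in the same barcode in 60.8 and 50.0% of this group, against 1.02 and 2.61% of endothelial barcodes. The endothelial class leaves out barcodes that met the mural rule, so a low share there follows in part from the rule. It was also shallower, and the shares were not compared at equal depth.

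Macrophages were the class in which Pdgfb differed. They stood at 8.07 CPM under LFD (12 UMIs, 4.17 to 14.1) and 31.1 CPM under HFD (91 UMIs, 25.03 to 38.2), a ratio of 3.85 (2.10 to 7.73). Thinned to 1000 UMIs the ratio was 1.88 (0.450 to 10.97) from 3 and 8 UMIs, within 2-fold and with an interval that held 1. A UMI was found in 4.78% of 230 LFD macrophages and 19.6% of 321 HFD macrophages, at median depths of 6328 and 6915 UMIs. Thinned to 5000 UMIs the shares were 4.07 and 11.6%. T cells, taken as the class that should lack the gene, at a median of 2764.5 and 1781 UMIs, held a UMI in 3 of 72 LFD barcodes (4.17%, 0.868 to 11.7) and 0 of 21 HFD barcodes. The LFD macrophage share lay within the T cell interval and above the 0.796% that 0 of 377 LFD fibroblasts, the larger and deeper class, allow. Endothelial cells still exceeded macrophages, 22.4-fold under LFD (12.3 to 44.8) and 6.29-fold under HFD (4.69 to 8.44). The 7 endothelial markers summed to 10.8 and 13.7 CPM in macrophages, with Tie1 and Emcn at 0 under LFD and no marker at 0 under HFD, against 8039 and 8517 CPM in endothelial cells.

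As a share of the library, macrophages held 12 of 244 Pdgfb UMIs under LFD (4.92%, 2.57 to 8.43) and 91 of 343 under HFD (26.5%, 21.9 to 31.5). Endothelial cells held 100 and 101 UMIs and endothelial-mural barcodes 110 and 108, nearly equal numbers in the libraries.

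Pdgfc was the macrophage ligand of the LFD library. Macrophages stood at 70.6 CPM under LFD (105 UMIs, 57.8 to 85.5) and 24.9 CPM under HFD (73 UMIs, 19.6 to 31.4), a ratio of 0.353 (0.258 to 0.481). Under the limits of the study methods the ratio was 0.599 (0.259 to 1.37) from 14 and 13 UMIs, within 2-fold and with an interval that held 1. A UMI was found in 34.3 and 15.9% of macrophages. Macrophages held 73.4% of 143 Pdgfc UMIs under LFD and 79.3% of 92 under HFD. No Pdgfc UMI was found in T cells, and endothelial cells held 2 and 0.

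Most of the other Pdgfc UMIs lay in fibroblasts, with 31 under LFD and 17 under HFD. Without mesothelial-gene barcodes, Pi16-high fibroblasts stood at 15.0 CPM (20 UMIs) under LFD and 19.3 CPM (13 UMIs) under HFD. Pi16-low fibroblasts stood at 6.15 CPM (9 UMIs) and 1.25 CPM (2 UMIs). The Pi16-low to Pi16-high ratio was 0.410 (0.164 to 0.941) under LFD and 0.0648 (0.00710 to 0.286) under HFD, an order opposite to that of both receptors.

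Of the 3 members with at least 20 UMIs in macrophages, Pdgfb was past 2-fold upwards, Pdgfc past 2-fold downwards and Pdgfa within it, at 1.24 (0.822 to 1.91). Of the 83 Pdgfa UMIs of HFD macrophages, 18 lay in 1 barcode, and without it the HFD level was 22.3 CPM (17.2 to 28.4) against 22.9 CPM under LFD, so that the direction turned. In macrophages 14.5% of 9205 genes were past 2-fold, the largest share of the classes with more than 200 genes tested.

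To see where in the macrophages these differences lay, they were split by genes known to mark their states, a split chosen after the values had been seen. Cd9, a surface tetraspanin of lipid-associated macrophages of obese fat, set one subset at 2 UMIs or more. Timd4 and Ccl24, genes of resident tissue macrophages, set another at 2 UMIs or more together where Cd9 was 0 or 1. The subsets are ranges of expression and not types: 45 HFD macrophages lay at 1 or 2 UMIs of Cd9, and 34 LFD and 66 HFD macrophages at 1 or 2 UMIs of Timd4 and Ccl24. The genes that set them differed between the libraries, and the subset of Cd9 held 1 LFD and 86 HFD barcodes.

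Pdgfc followed Timd4 and Ccl24 in both libraries. In the Timd4 or Ccl24 subset it stood at 79.4 CPM in 188 LFD barcodes (100 UMIs, 64.6 to 96.5) and 78.7 CPM in 79 HFD barcodes (46 UMIs, 57.6 to 104.9), a ratio of 0.991 (0.683 to 1.42). In macrophages with neither mark it stood at 22.6 CPM in 41 LFD barcodes (5 UMIs) and 19.2 CPM in 156 HFD barcodes (19 UMIs), a ratio of 0.848 (0.306 to 2.91). Cd9 macrophages of the HFD library had 5.91 CPM (8 UMIs, 2.55 to 11.7). The lower Pdgfc of HFD macrophages as a whole was therefore not seen within the subset that held 100 of the 105 LFD UMIs.

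Pdgfb ran the other way. It was 5.55 CPM (7 UMIs) and 1.71 CPM (1 UMI) in the Timd4 or Ccl24 subset, 22.6 CPM (5 UMIs, 7.35 to 52.8) and 26.3 CPM (26 UMIs, 17.2 to 38.5) with neither mark, and 47.3 CPM (64 UMIs, 36.4 to 60.4) in HFD Cd9 macrophages. Those 86 barcodes held 64 of the 91 macrophage UMIs, and 39 of them (45.3%, 34.6 to 56.5) carried at least 1. Their level was 2.76-fold that of other HFD macrophages (1.73 to 4.50). They were deeper, at a median of 10520 UMIs against 6451, and thinned to 5000 UMIs the share with Pdgfb was 21.0%. Over macrophages with 0 or 1 UMI of Cd9, the HFD/LFD ratio was 2.12 (1.04 to 4.59). It was 0.308 (0.00683 to 2.40) from 7 and 1 UMIs in the Timd4 or Ccl24 subset and 1.16 (0.439 to 3.87) from 5 and 26 UMIs with neither mark, and both intervals held 1.

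Pdgfa in macrophages gave the least clear pattern. It stood at 22.9 CPM under LFD (34 UMIs, 15.8 to 32.0) and 28.4 CPM under HFD (83 UMIs, 22.6 to 35.2). Under HFD, Cd9 macrophages stood at 45.1 CPM (61 UMIs, 34.5 to 57.9) and other macrophages at 14.0 CPM (22 UMIs), a ratio of 3.23 (1.95 to 5.52). Of the 86, 1 barcode held 18 of the 61 UMIs, and without it the Cd9 level was 32.1 CPM (23.3 to 43.3). Among macrophages with 0 or 1 UMI of Cd9, the HFD/LFD ratio of Pdgfa was 0.609 (0.339 to 1.07). Of 321 HFD macrophages, 45 held Pdgfa, 63 held Pdgfb and 19 held both.

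The Cd9 barcodes also carried Trem2 at 1742 CPM and Spp1, which encodes osteopontin, at 82.8 CPM, against 417 and 10.1 CPM in HFD macrophages with neither mark.

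**Figure D4:**
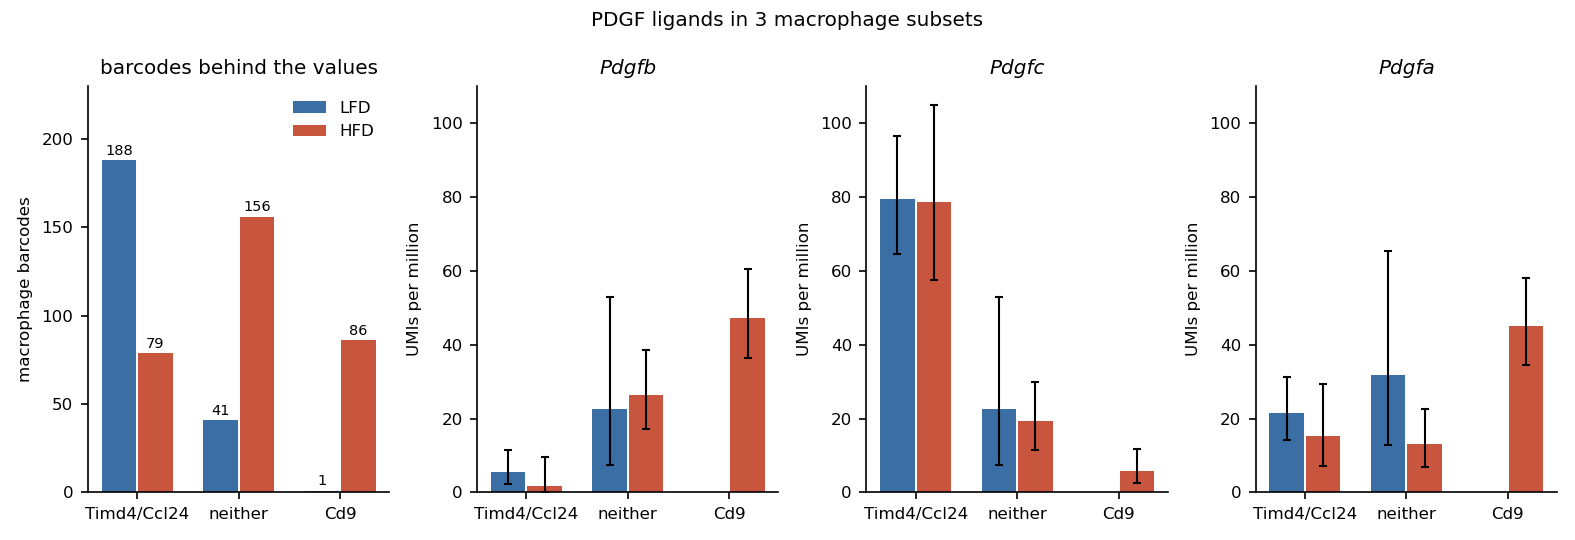
Macrophage barcodes with at least 2 UMIs of Timd4 and Ccl24, with neither mark, or with at least 2 UMIs of Cd9 (left panel, number of barcodes) and CPM of Pdgfb, Pdgfc and Pdgfa in them (vertical axis), LFD in blue and HFD in red with exact Poisson 95% intervals. The single LFD barcode with Cd9 is not drawn in the CPM panels. Pdgfc is 79.4 and 78.7 CPM in the Timd4 or Ccl24 subset of both libraries, and Pdgfb is highest in HFD Cd9 macrophages at 47.3 CPM.

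Pdgfa, the classical ligand of PDGF receptor alpha, came from several sources. Over all barcodes it stood at 14.6 CPM under LFD (106 UMIs) and 28.1 CPM under HFD (236 UMIs), a ratio of 1.93 (1.53 to 2.45), the highest of the 6 genes. It was 1.58 (1.07 to 2.35) thinned to 5000 UMIs, 1.33 (0.641 to 2.86) thinned to 1000 UMIs and 1.31 (0.580 to 3.16) under the limits of the study methods, and the last 2 intervals held 1. Under LFD, macrophages held 32.1% of its UMIs, endothelial-mural barcodes 25.5% and mesothelial-gene barcodes 18.9%. Under HFD these shares were 35.2, 31.4 and 8.05%. Macrophages were 21.8% of LFD and 28.7% of HFD barcodes, and endothelial-mural barcodes 4.82 and 8.24%. The number of barcodes of each class and the Pdgfa level within it enter the ratio over all barcodes together.

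In the Pi16-high class, Pdgfa lay mostly in the mesothelial-gene barcodes. They stood at 59.4 CPM under LFD (20 UMIs) and 125.7 CPM under HFD (19 UMIs), while the other Pi16-high fibroblasts had 1 UMI in 148 barcodes and 4 UMIs in 72. The ratio of the first to the second was 79.1 under LFD (12.7 to 3279) and 21.1 under HFD (7.02 to 85.4). The HFD/LFD ratio of Pdgfa in the whole Pi16-high class, 2.22 (1.18 to 4.22), was the only one of 5 member ratios past 2-fold there, where 6.36% of 8763 genes were, and 39 of the 44 UMIs behind it lay in 37 mesothelial-gene barcodes. Pi16-low fibroblasts stood at 6.71 and 6.88 CPM, from 10 and 11 UMIs.

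Endothelial-mural barcodes carried Pdgfa at 35.8 CPM under LFD (27 UMIs, 23.6 to 52.0) and 78.7 CPM under HFD (74 UMIs, 61.8 to 98.8), a ratio of 2.20 (1.40 to 3.56). Thinned to 5000 UMIs the ratio was 2.27 (0.949 to 6.24) from 7 and 24 UMIs, thinned to 1000 UMIs it was 1.40 (0.229 to 14.7) from 2 and 5, and under the limits of the study methods it was 1.40 (0.113 to 73.7) from 1 and 3. All 3 intervals held 1, and the last 2 values were within 2-fold. A UMI was found in 18 of 51 and 40 of 92 of them. Endothelial cells had 7.24 and 17.4 CPM, 4 and 9 UMIs, so the endothelial-mural barcodes stood 4.94-fold (1.72 to 19.4) and 4.51-fold (2.25 to 10.3) above. Split by Acta2, a smooth muscle actin, barcodes with at least 2 UMIs had 56.3 CPM of Pdgfa in 12 LFD and 162.6 CPM in 9 HFD barcodes. Those with 0 or 1 had 24.6 CPM in 39 LFD and 66.0 CPM in 83 HFD barcodes, so the ratio was above 2 on either side of the split, at 2.89 (1.40 to 6.06) and 2.69 (1.42 to 5.52). This split was chosen after the values were seen, and 12 LFD and 10 HFD barcodes lay at 1 or 2 UMIs.

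Of 4 members with at least 20 UMIs in endothelial-mural barcodes, Pdgfa was past 2-fold and Pdgfrb, Pdgfb and Pdgfd were not. In this class 4.48% of 7941 genes were past 2-fold. Of the barcodes of this class with a Pdgfa UMI, 17 of 18 under LFD and 37 of 40 under HFD also held Pdgfrb. In the whole class 36 of 51 and 68 of 92 held Pdgfrb. Pdgfb was held by 16 of the 18 and 27 of the 40, where 42 of 51 and 57 of 92 of the whole class held it. These overlaps were not compared at equal depth.

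Pdgfd, the ligand of PDGF receptor beta that needs a protease, was found in endothelial cells, endothelial-mural barcodes and fibroblasts. Endothelial cells stood at 52.5 CPM under LFD (29 UMIs, 35.1 to 75.4) and 52.3 CPM under HFD (27 UMIs, 34.5 to 76.1), a ratio of 0.996 (0.568 to 1.74). Endothelial-mural barcodes stood at 35.8 CPM (27 UMIs, 23.6 to 52.0) and 42.5 CPM (40 UMIs, 30.4 to 57.9), a ratio of 1.19 (0.712 to 2.01), and held 21.3% of 127 and 33.6% of 119 Pdgfd UMIs. Endothelial cells held 22.8 and 22.7%. Fibroblasts stood at 20.9 CPM (66 UMIs, 16.2 to 26.6) and 17.3 CPM (42 UMIs, 12.5 to 23.4), a ratio of 0.830 (0.550 to 1.24). Without the mesothelial-gene barcodes they stood at 19.7 CPM (55 UMIs) and 15.9 CPM (36 UMIs), a ratio of 0.808 (0.515 to 1.25). Endothelial cells were thus 2.51-fold above fibroblasts under LFD (1.56 to 3.94) and 3.02-fold under HFD (1.79 to 5.01), with those barcodes included, and none of the 3 classes differed between diets beyond counting error at full depth. In fibroblasts thinned to 5000 UMIs the Pdgfd ratio was 0.536 (0.285 to 0.967) from 40 and 17 UMIs, an interval that left out 1. Under the limits of the study methods it was 1.69 (0.665 to 4.81) from 7 and 17 UMIs, in the opposite direction.

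For Pdgfd the interval of the ratio between fibroblast classes included 1 in both libraries. Without mesothelial-gene barcodes, Pi16-low and Pi16-high fibroblasts had 16.4 and 23.3 CPM under LFD and 15.7 and 16.4 CPM under HFD, with ratios of 0.705 (0.396 to 1.24) and 0.958 (0.455 to 2.16). Mesothelial-gene barcodes had 30.3 CPM (11 UMIs) and 38.6 CPM (6 UMIs). Macrophages had 0 UMIs in 230 and 321 barcodes, which allows up to 1.30 and 0.935% of them to hold a UMI. Of the 377 LFD fibroblasts, 62 held Pdgfd and 30 held Pdgfd and Pdgfrb, and of the 291 HFD fibroblasts these numbers were 35 and 16.

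In endothelial cells the members with at least 20 UMIs were Pdgfb and Pdgfd, and 0 of these 2 were past 2-fold, where 5.98% of 6239 genes were. In Pi16-low fibroblasts 0 of 4 were past it, where 7.02% of 8964 genes were.

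**Figure D5:**
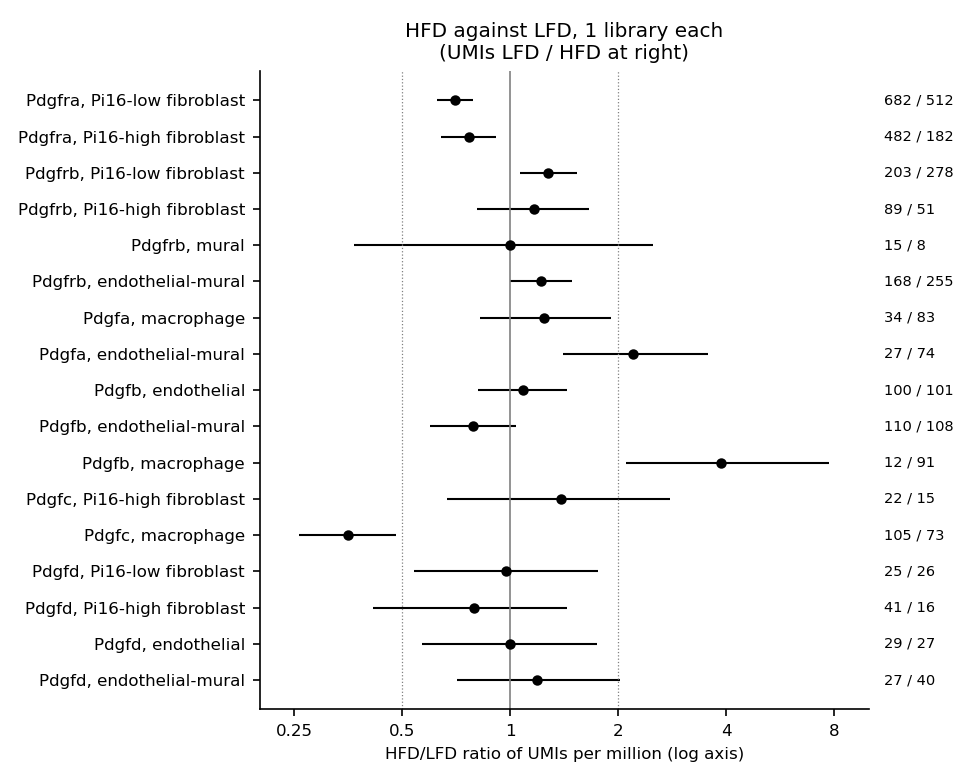
HFD/LFD ratio of CPM (horizontal axis, logarithmic) for 17 pairs of a PDGF gene and a class, 1 library per diet, with exact conditional 95% intervals and the UMIs of both libraries at the right. Dotted lines mark 2-fold. Pdgfb in macrophages (3.85) and Pdgfc in macrophages (0.353) stand farthest from 1, and their intervals lie beyond 2-fold.

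Of the 46 other genes of the pathway that were listed, 38 had at least 20 UMIs in Pi16-low fibroblasts, 38 in Pi16-high fibroblasts, 30 in endothelial cells, 30 in macrophages and 35 in endothelial-mural barcodes. Past 2-fold upwards and downwards were 1 and 0 in Pi16-low fibroblasts, 2 and 2 in Pi16-high fibroblasts, 2 and 0 in endothelial cells, 2 and 4 in macrophages, and 1 and 0 in endothelial-mural barcodes. Over all genes the shares past 2-fold were 7.02, 6.36, 5.98, 14.5 and 4.48% in these classes. The median log2 ratio of the list was -0.05 in Pi16-low fibroblasts, where that of all genes was -0.03, and -0.17 in macrophages, where that of all genes was -0.04. It lay above that of all genes in Pi16-high fibroblasts (0.04 against -3.34e-05), endothelial cells (0.15 against 0.000144) and endothelial-mural barcodes (0.10 against 0.01). Over all barcodes, 44 of the 46 could be counted and 1 was past 2-fold, Pcsk6, a proprotein convertase, at 100.1 and 34.3 CPM, a ratio of 0.343 (0.298 to 0.393). The number of barcodes of each class and the level within it enter this value together. Within the classes above, no gene that processes or binds the ligands was past 2-fold downwards among those with at least 20 UMIs.

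Among genes that process or bind the ligands, Sparc was past 2-fold in both fibroblast classes. Sparc, a matrix protein that binds PDGF-B, stood at 3537 and 7516 CPM in Pi16-low fibroblasts, a ratio of 2.12 (2.06 to 2.19), and at a ratio of 2.03 (1.95 to 2.12) in Pi16-high fibroblasts. Thbs1, thrombospondin, had a ratio of 2.39 (2.07 to 2.76) in Pi16-high fibroblasts. The genes past 2-fold upwards in macrophages were also Sparc, at 13.5 and 43.4 CPM, and Thbs1, at 3.36 and 17.8 CPM. Beside them, all 7 fibroblast markers had UMIs in macrophages, at 166 CPM together under LFD and 272 under HFD, against 37010 and 47889 CPM in Pi16-low fibroblasts. The part of fibroblast RNA in these macrophage values was not tested. Plat, the tissue plasminogen activator that cleaves PDGF-C, stood at 225 and 224 CPM in Pi16-low fibroblasts. In endothelial-mural barcodes Plat had 22.5 and 53.2 CPM, a ratio of 2.36 (1.34 to 4.37). Plau, the urokinase that cleaves PDGF-D, had 150.3 and 166 CPM in Pi16-low fibroblasts.

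The co-receptors stayed within 2-fold in each class with at least 20 UMIs. Nrp1, a neuropilin that binds PDGF ligands, had 311 and 293 CPM in Pi16-low fibroblasts and 651 and 358 CPM in macrophages, a ratio of 0.550 (0.503 to 0.601). Lrp1, an endocytic receptor that associates with PDGF receptor beta, had 758 and 740 CPM in Pi16-low fibroblasts and a ratio of 1.72 (1.48 to 1.996) in macrophages. Pdgfrl, a secreted protein that resembles the receptors' ligand-binding part, had 34.9 and 18.8 CPM in Pi16-low fibroblasts, a ratio of 0.538 (0.331 to 0.859), and 0 UMIs in endothelial cells.

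Downstream of the receptors, Pik3r1, a regulatory subunit of PI3 kinase, had a ratio of 0.473 (0.330 to 0.665) in Pi16-high fibroblasts. In macrophages, Stat3 had 0.408 (0.352 to 0.472) and Dusp6, an ERK phosphatase induced by the pathway, 0.450 (0.321 to 0.629). Also in macrophages, Spred2, an inhibitor of the Ras pathway, had 0.467 (0.253 to 0.858) and Ptprj, a receptor phosphatase, 0.496 (0.420 to 0.586). In endothelial cells, Kit, a receptor of the same class, had 30.8 and 89.1 CPM, a ratio of 2.90 (1.63 to 5.39), and Spry4 a ratio of 2.02 (0.852 to 5.15) from 9 and 17 UMIs. Macrophages held 1 UMI of each PDGF receptor in each library, and the cause of the ratios of these signalling genes was not tested.

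Over 17 profiles of a class in a library with at least 20 barcodes, the genes whose log2 level ran most like that of each member were found among genes with at least 100 UMIs. For Pdgfra they were Ogn, Entpd2 and Cyp1b1 (Pearson r 0.993, 0.992 and 0.991), for Pdgfrb Cygb, Arhgef17 and Tbx18 (0.978, 0.977 and 0.972), and for Pdgfb Scarb1, Cd93 and Nes (0.974, 0.969 and 0.968). For Pdgfd they were Fam171a1, Smtn and Ramp2 (0.974, 0.971 and 0.971). For Pdgfc, with Snx6, Wwp1 and P2ry12 (0.845, 0.840 and 0.832), and for Pdgfa, with 2010320M18Rik, Zscan21 and 9030624J02Rik (0.853, 0.852 and 0.836), the likeness was lower. Between members, the receptors ran together at r = 0.817, Pdgfrb and Pdgfd at 0.608, and Pdgfb and Pdgfd at 0.588. The profiles of a library share its depth and its free RNA, and the values are descriptions.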

How the data were processed

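Raw UMI counts per gene and barcode were deposited by the authors, made with Cell Ranger on mm10. The methods of the study and the count tables name different versions of it, and the header of each table names 3.0.2. No strand setting or doublet removal is given in the sources used here.

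Barcodes with at least 200 genes were kept and classed by UMI minimums. Those that met several class rules were set apart and split by the rules met. CPM was the sum of UMIs of a gene over the UMIs of a class. CPM has an exact Poisson interval, shares have Clopper-Pearson intervals, and HFD/LFD ratios have an exact conditional binomial interval, all at 95% and for counting error only. A share of 0 was bounded by 3 counts. A gene was called past 2-fold among those with at least 20 UMIs over both libraries in a class. With 1 library per diet no p-value was computed.

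Thinning drew 1000 or 5000 UMIs per barcode, leaving out shallower ones. Scrublet (expected rate 1%) marked 21 of 1057 LFD and 26 of 1117 HFD barcodes. Likeness used log2(CPM + 10). Ratio intervals were tested on simulated data. Python 3.11.15, numpy 2.4.6, scipy 1.17.1 and scanpy 1.11.5 were used.

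The members, classes and gene lists were chosen with earlier results of these data known. Named pathway genes were those past 2-fold in a class, with Plat, Plau, Nrp1, Lrp1, Sparc and Pdgfrl. The values of 1 gene that met this rule are not reported here. Endothelial-mural, mesothelial-gene and macrophage splits, thinning to 5000 UMIs and the ratios of Pdgfb in macrophages and Pdgfa in endothelial-mural barcodes were chosen later, with the values in view.

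Alternatives were other limits on barcodes, other class rules, thinning, CPM averaged over barcodes, another denominator, and doublet calls left out.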

Additional observations from a re-analysis of the deposited data

How the results depend on the processing

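No paired analysis was possible because there was 1 library per diet. Of 142 alternative values, 117 lay within the 95% interval of the reported value (for shares of genes past 2-fold, within 1.5 times it), and 22 lay outside it. The other 3 were on the other side of 1 from a ratio whose interval left out 1, of 84 such values. Some of the 117 could not have come out otherwise. Changes of the class rules cannot alter Pdgfa over all barcodes, which uses no classes. Leaving out Scrublet calls cannot alter the mural and endothelial-mural values, as no barcode of these groups was called. These values are counted all the same. Of 33 values for the ratios whose interval held 1, 11 were on the other side: 6 for Pdgfrb in mural cells, 3 for Pdgfb in endothelial cells and 2 for Pdgfd in fibroblasts. The cause was not tested.

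With 200 to 2500 genes and under 5% mitochondrial UMIs, the HFD/LFD ratio was 1.01 for Pdgfra in Pi16-low fibroblasts (a change of direction) and 0.429 in Pi16-high ones, 1.31 for Pdgfa over all barcodes, 0.599 for Pdgfc in macrophages and 1.69 for Pdgfd in fibroblasts (a change of direction), and 29.9% of LFD and 42.9% of HFD fibroblasts held both receptors. Thinned to 1000 UMIs, it was 0.88 for Pdgfrb in Pi16-low fibroblasts (a change of direction), 0.971 for Pdgfra in Pi16-high fibroblasts, 1.33 for Pdgfa over all barcodes, 0.429 for Pdgfd in fibroblasts and 1.88 for Pdgfb in macrophages, and 3.49 and 2.77% of fibroblasts held both receptors. Thinned to 5000 UMIs, it was 1.06 for Pdgfrb in Pi16-low fibroblasts and 0.536 for Pdgfd in fibroblasts, with both receptors in 32 and 31.2%. Class rules per 5000 UMIs gave 0.591 for Pdgfra in Pi16-high fibroblasts. In macrophages with 0 or 1 UMI of Cd9, Pdgfc had 0.582, and in the Timd4 or Ccl24 subset Pdgfc had 0.991 and Pdgfb 0.308, from 7 and 1 UMIs (a change of direction). With a minimum of 5 UMIs, 14.4% of genes were past 2-fold in Pi16-low, 14.4% in Pi16-high fibroblasts, 15.8% in endothelial and 44.7% in mural cells.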
